A study of Homo sapiens with 9 samples.

Results

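The receptor tyrosine kinases that melanoma cells exchange when they switch phenotype were read in MDA-MB435S, a metastatic melanoma cell line, with and without restored WWOX, a tumor suppressor that works as a scaffold through its WW domains. The set held 10 genes: EGFR, ERBB2, ERBB3 and ERBB4, the 4 receptors of the ERBB family; AXL, the receptor of GAS6; MET, the receptor of HGF; PDGFRA and PDGFRB, the receptors of platelet-derived growth factors; IGF1R, the receptor of insulin-like growth factors; and FGFR1, a receptor of fibroblast growth factors. Its members were all probe sets of the array annotated to exactly 1 of these genes, which gave 44 of the 54613 probe sets tested. EGFR had 9 of them, FGFR1 had 7, ERBB3 and IGF1R had 5 each, ERBB4, MET and PDGFRA had 4 each, ERBB2 had 3, AXL had 2 and PDGFRB had 1.

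Affymetrix expression arrays of total RNA were compared in 3 groups of 3 arrays. The WWOX group carried wild-type WWOX in a lentiviral vector, the WFPA group carried WWOX with the WFPA mutation of the first WW domain, which disrupts binding to partner proteins, and the EV group carried the empty vector. The methods of the paper describe the cells with wild-type or mutated WWOX as stable clones selected with G418, without naming the empty-vector cells there. Cells of all groups were grown in the same medium. The labels conflict on the vectors: the titles of the EV arrays also hold the tag wox+, their vector field names wild-type WWOX, and that field reads none for the arrays titled as WWOX cells. Groups were taken from the titles. WWOX itself was checked first: at probe set 223868_s_at its log2 value was 10.34 to 10.83 in WWOX cells, 10.12 to 10.35 in WFPA cells and 8.74 to 9.26 in EV cells, and at 221147_x_at it was 7.87 to 8.46 in WWOX cells, 7.56 to 7.68 in WFPA cells and 4.21 to 4.83 in EV cells, so the arrays titled EV were lowest at both. Of the other 3 WWOX probe sets, 219077_s_at was also lowest in EV cells, 210695_s_at overlapped between all groups, and 223747_x_at was 8.73 to 9.11 in WWOX cells, 8.15 to 8.49 in WFPA cells and 8.77 to 9.37 in EV cells. The paper describes stable clones and, in a figure legend, replicates of each clone, so each group may be a single clone. The number of clones in a group is not stated outright in the sources used here. Nor is it stated whether its 3 arrays came from separate cultures. Whether a difference between groups goes with the construct or with the clone was not tested. Only variation among these 3 groups of arrays enters the p-values.

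A receptor tyrosine kinase binds a ligand outside the cell, pairs with a second receptor and phosphorylates it, and adaptor proteins then dock on the phosphorylated tail and pass the signal to the RAS and PI3K pathways. Melanoma cells are known to move between a melanocytic state, driven by the transcription factors SOX10 and MITF, and a dedifferentiated, invasive state in which both factors are low. ERBB3 is known as a receptor of the first state and AXL, EGFR and PDGFRB as receptors of the second. MET is a known target of MITF.

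The SOX10 and MITF state differed strongly between the groups. SOX10, the neural crest factor that maintains the melanocyte lineage, had log2 values of 10.53, 10.44 and 10.67 in WWOX cells, 5.44, 5.30 and 5.26 in WFPA cells, and 4.67, 5.05 and 4.96 in EV cells at 209842_at. The log2 difference of WWOX cells from the mean of WFPA and EV cells was 5.43 ± 0.103 (SE; adjusted p = 3.87e-08, limma). The WFPA and EV values lie among the dim values of the arrays, so the size of the rise is uncertain. The second SOX10 probe set, 209843_s_at, had 8.43, 8.54 and 8.84 in WWOX cells, 5.72, 5.48 and 5.60 in WFPA cells, and 5.75, 5.65 and 5.43 in EV cells, a smaller rise of 3.00 ± 0.116 (adjusted p = 6.11e-07). MITF, the melanocyte master regulator, had 13.60, 13.45 and 13.26 in WWOX cells, 11.45, 11.33 and 11.43 in WFPA cells, and 11.89, 11.83 and 11.90 in EV cells at 226066_at. At this probe set MITF rose 3.48-fold in WWOX cells (1.80 ± 0.0875, adjusted p = 2.43e-06). MITF stayed bright in WFPA and EV cells at 226066_at and at 207233_s_at (9.37 to 9.92), above the upper quartiles of the arrays (8.45 to 8.59). Only at 1554874_at was it dim in those cells (2.93 to 3.57). Between WFPA and EV cells both factors depended on the probe set. MITF in WFPA cells stood below EV cells at 226066_at (-0.47, adjusted p = 0.0266), missed the threshold at 207233_s_at (-0.38, adjusted p = 0.115) and overlapped at the dim 1554874_at (0.03, adjusted p = 0.96). SOX10 missed the threshold at both, with 0.44 at 209842_at (adjusted p = 0.063) and -0.01 at 209843_s_at (adjusted p = 0.979), where the groups overlapped.

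Set beside that state, 1 of the 10 receptors, ERBB3, rose 2-fold or more at its brightest probe set against the mean of WFPA and EV cells. In that comparison 0 receptors fell so far, where 1.94% of all genes rose and 2.06% fell. Against EV cells alone 1 receptor rose and 0 fell, and against WFPA cells 0 rose and 0 fell. A probe set was called when its adjusted p was under 0.05 and its change at least 2-fold. Setting WWOX cells against the mean of WFPA and EV cells, 3 of the 44 member probe sets were called (6.82%), 2 higher and 1 lower, where 3.23% of all probe sets were called. Both higher probe sets belonged to ERBB3 and the lower one to MET. Against EV cells alone the same numbers were called, 2 higher and 1 lower, beside 3.29% of all probe sets, and against WFPA cells 2 were called, both lower, beside 3.98%. Between WFPA and EV cells 0 of the 44 were called by limma, beside 1.73%, where 3 had an adjusted p under 0.05 and 4 an unadjusted p under 0.05, and limma-trend and a robust prior also called 0. With no limit on the fold, 7 member probe sets passed against the mean of both (15.9%), 6 against EV (13.6%), 7 against WFPA (15.9%) and 3 between WFPA and EV cells (6.82%), and the shares of all probe sets were 16.3%, 11.8%, 16.3% and 6.64% in that order, so the members passed about as often as any probe set. The same arrays enter more than 1 of these comparisons. The median absolute log2 difference of the members was 0.14 against the mean of both, beside 0.17 over all probe sets.

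**Figure D1:**
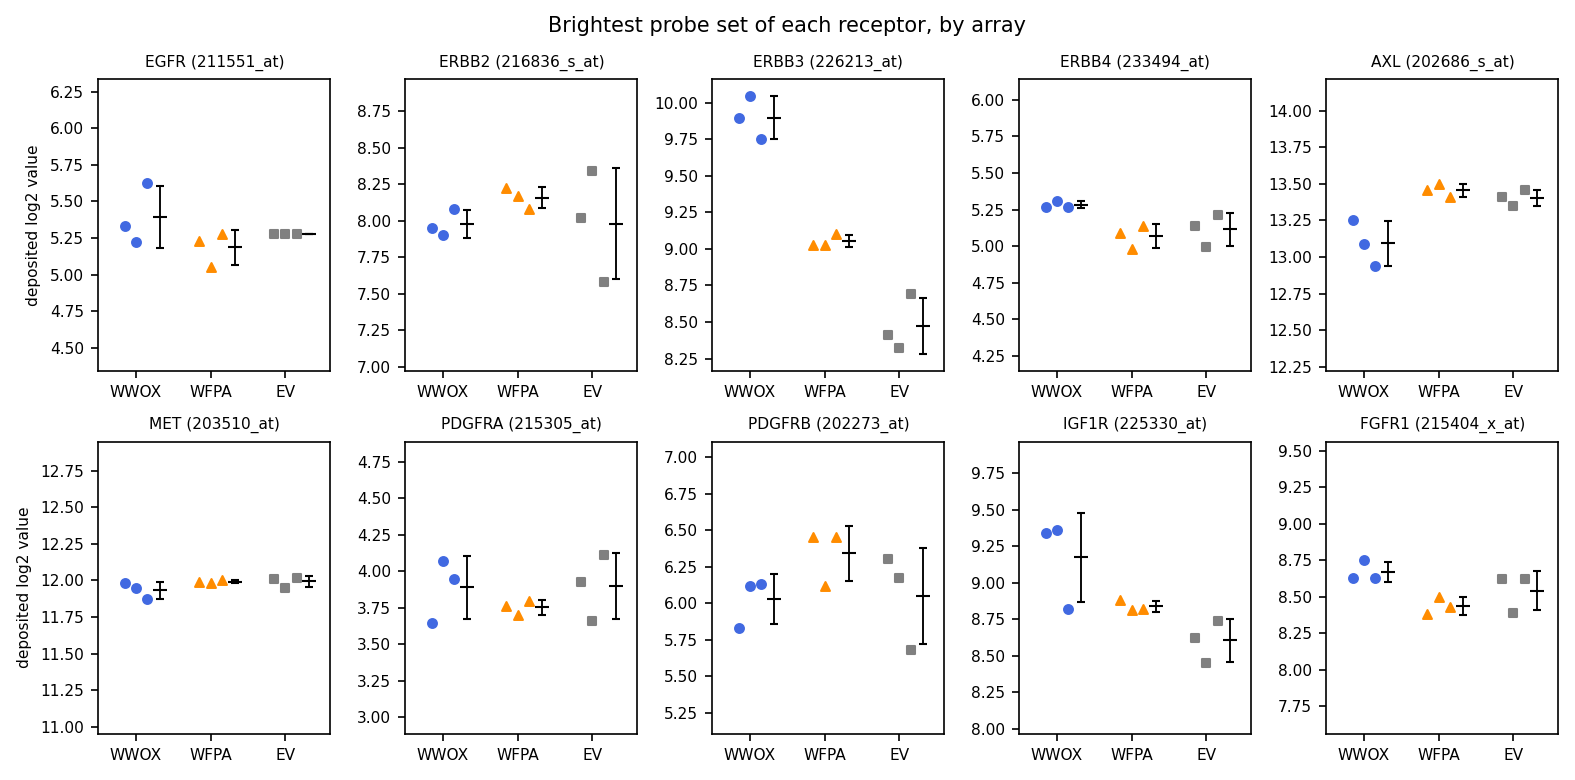
Deposited log2 value on each array (points) at the brightest probe set of each of the 10 receptors in WWOX, WFPA and EV cells, with the group mean and SD (bars, n = 3); each panel has its own axis. ERBB3 in the WWOX arrays (9.75 to 10.05) lies above WFPA (9.03 to 9.10) and EV (8.32 to 8.69), AXL in the WWOX arrays lies below the other 6, and MET differs by less than 0.1 between group means.

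ERBB3, which binds neuregulins, has a weak kinase of its own and signals by pairing with ERBB2 or another ERBB receptor, rose in WWOX cells. At 226213_at its log2 value was 9.90, 10.05 and 9.75 in WWOX cells, 9.03, 9.03 and 9.10 in WFPA cells, and 8.41, 8.32 and 8.69 in EV cells. No array of a group overlapped another group. WWOX cells were 2.7-fold above EV cells (1.43 ± 0.119, SE; adjusted p = 8.34e-05) and 1.8-fold above WFPA cells (0.85 ± 0.119, adjusted p = 0.00154), and against the mean of both the rise was 1.14 ± 0.103 (adjusted p = 1.12e-04). The second probe set, 202454_s_at, gave 9.15, 9.10 and 8.87 in WWOX cells, 8.38, 8.25 and 8.13 in WFPA cells, and 7.43, 7.42 and 7.93 in EV cells. Again the groups did not overlap, and the rise was 1.44 ± 0.153 over EV cells (adjusted p = 3.89e-04) and 0.79 ± 0.153 over WFPA cells (adjusted p = 0.00819). In bulk RNA a higher level in every cell and a larger share of cells with the transcript cannot be told apart.

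WFPA cells held an intermediate ERBB3 level. They were above EV cells by 0.58 ± 0.119 at 226213_at (1.5-fold, adjusted p = 0.0212) and by 0.65 ± 0.153 at 202454_s_at (1.57-fold, adjusted p = 0.0372), under the 2-fold limit at both. This step was less firm than the one over EV cells in the WWOX group: of 15 alternative fits, Bonferroni adjustment aside, the adjusted p of the WFPA step stayed under 0.05 in 9 at 226213_at and in 8 at 202454_s_at, and that of the WWOX step in all 15 at both. Leaving out single arrays moved the WFPA step between 0.51 and 0.69 at 226213_at. MITF at 226066_at was lower in WFPA cells, as given above. The other 3 ERBB3 probe sets were dimmer and moved little. At 1563253_s_at the log2 value was 6.37, 6.20 and 6.29 in WWOX cells, 5.95, 5.95 and 5.88 in WFPA cells and 6.02, 6.14 and 6.30 in EV cells, a rise of 0.36 over WFPA cells (adjusted p = 0.0339) that was not seen against EV cells (0.14, adjusted p = 0.43). At 1563252_at the WWOX arrays (5.93 to 6.13) lay above the other 6 (5.73 to 5.90) and the difference of 0.20 missed the threshold (adjusted p = 0.111), and 215638_at, under the lower quartile of its array on 4 of 9 arrays, differed by 0.13 (adjusted p = 0.639).

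The pattern of ERBB3 over the 9 arrays was compared with that of 1524 genes whose SD over the arrays was at least 0.5. The closest were CRYAB, a small heat shock protein (r = 0.990; mean log2 value 8.97 in WWOX, 6.33 in WFPA and 5.03 in EV cells), and TM4SF18, a tetraspan membrane protein (r = 0.985; 9.76 in WWOX, 7.31 in WFPA and 5.51 in EV cells). SOX10 stood at rank 100 (r = 0.919) and MITF at rank 314 (r = 0.792). The points share their groups, so these values describe the order and spacing of the 3 groups.

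ERBB2, the ERBB receptor with no ligand of its own and the usual partner of ERBB3, showed no such change. At 216836_s_at it had 7.95, 7.90 and 8.08 in WWOX cells, 8.22, 8.17 and 8.08 in WFPA cells, and 8.02, 8.34 and 7.58 in EV cells. The EV arrays spanned the range of both other groups, and the difference of WWOX cells from the mean of both was -0.09 (95% interval -0.43 to 0.24, adjusted p = 0.703). The other 2 probe sets differed by 0.05 and -0.04 (adjusted p = 0.724 and 0.923). ERBB4, the neuregulin receptor with an active kinase, was dim: 3 of its 4 probe sets were under the lower quartile of the array, a log2 value of 4.23 to 4.34, on at least 1 array. At its brightest, 233494_at, the WWOX arrays (5.27 to 5.31) lay above the other 6 (4.98 to 5.21), a difference of 0.19 (95% interval 0.02 to 0.37) that missed the threshold (adjusted p = 0.129), and the other 3 differed by -0.06 to 0.38.

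EGFR, AXL and MET each had a probe set that fell in WWOX cells. Their promoters are shown because of those probe sets, though other probe sets of EGFR and MET did not fall, and short motifs of the factors of both melanoma states were looked for in them. The windows run from 250 bases before to 50 after an annotated start (RefSeq, GRCh38.p14), 5′ to 3′ on the gene's strand, which is + for all 3 genes. Capitals mark ACAAAG or ACAATG (SOX factors), CATGTG or CACGTG (the E-box of MITF), TGAGTCA (AP-1) and GGAATG (TEAD), on either strand. The 3 genes had 5 windows, at chr7:55018767-55019066 and chr7:55109589-55109888 for EGFR, chr19:41218973-41219272 and chr19:41226505-41226804 for AXL, and chr7:116671946-116672245 for MET.
EGFR start 1: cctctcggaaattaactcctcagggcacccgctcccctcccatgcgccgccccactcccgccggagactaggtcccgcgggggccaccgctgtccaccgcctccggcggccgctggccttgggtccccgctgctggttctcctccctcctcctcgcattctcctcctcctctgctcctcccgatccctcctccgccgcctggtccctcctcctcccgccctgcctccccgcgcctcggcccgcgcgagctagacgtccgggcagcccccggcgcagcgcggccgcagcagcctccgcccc
EGFR start 2: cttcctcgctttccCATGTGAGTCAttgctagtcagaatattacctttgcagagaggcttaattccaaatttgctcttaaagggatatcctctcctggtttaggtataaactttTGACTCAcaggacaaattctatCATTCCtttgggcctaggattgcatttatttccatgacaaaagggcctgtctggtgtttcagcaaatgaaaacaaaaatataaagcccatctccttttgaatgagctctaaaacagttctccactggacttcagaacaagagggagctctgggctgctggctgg
AXL start 1: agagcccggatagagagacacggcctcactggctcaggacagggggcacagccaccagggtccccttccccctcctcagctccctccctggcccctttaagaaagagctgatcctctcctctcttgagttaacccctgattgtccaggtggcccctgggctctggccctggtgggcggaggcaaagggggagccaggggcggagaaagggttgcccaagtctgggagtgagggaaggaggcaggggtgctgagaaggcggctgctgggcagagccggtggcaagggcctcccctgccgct
AXL start 2: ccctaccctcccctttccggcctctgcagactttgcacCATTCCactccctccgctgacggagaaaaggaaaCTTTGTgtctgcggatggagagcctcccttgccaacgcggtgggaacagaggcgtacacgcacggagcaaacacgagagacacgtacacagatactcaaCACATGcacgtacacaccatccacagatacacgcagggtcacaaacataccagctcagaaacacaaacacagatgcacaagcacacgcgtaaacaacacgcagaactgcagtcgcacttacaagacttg
MET: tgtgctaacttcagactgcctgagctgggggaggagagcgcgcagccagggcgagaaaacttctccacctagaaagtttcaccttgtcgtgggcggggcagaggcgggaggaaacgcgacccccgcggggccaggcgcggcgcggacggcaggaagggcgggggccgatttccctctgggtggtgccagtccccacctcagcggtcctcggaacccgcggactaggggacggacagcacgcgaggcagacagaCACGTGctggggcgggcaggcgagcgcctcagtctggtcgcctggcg

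The upstream window of EGFR and that of AXL held none of the motifs. The second EGFR window held 2 AP-1 matches, TGAGTCA 232 and TGACTCA 136 bases before the start, with a CATGTG that overlaps the outer one by 2 letters, and a TEAD match (CATTCC) 114 bases before the start. The second AXL window held a TEAD match, a SOX match (CTTTGT) and a CACATG. The MET window held a CACGTG just after the start. Windows were read for 8 of the 10 receptors, 11 windows in all. No window of ERBB3 or FGFR1 was read here, so the motif counts do not cover these 2 receptors. Among these 11 windows, 1 held a SOX match, 3 an E-box, 1 an AP-1 match and 2 a TEAD match, where 24.5% of all 35116 windows held a SOX match, 17.6% an E-box, 4.95% an AP-1 match and 14% a TEAD match. A match is a run of letters, and binding was not measured here.

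AXL, which is bound by GAS6 and marks the invasive state, was slightly lower in WWOX cells and stayed bright in all groups. At 202686_s_at it had 13.25, 13.09 and 12.94 in WWOX cells, 13.46, 13.50 and 13.41 in WFPA cells, and 13.41, 13.35 and 13.46 in EV cells. Every WWOX array lay below the other 6. The difference from the mean of both was -0.34 ± 0.0842 (1.26-fold, adjusted p = 0.0259), passing against WFPA cells (-0.36, adjusted p = 0.034) and missing the threshold against EV cells (-0.31, adjusted p = 0.0752). At 202685_s_at AXL had 8.45, 8.42 and 8.32 in WWOX cells, 8.66, 8.78 and 8.76 in WFPA cells, and 8.62, 8.83 and 8.71 in EV cells, again with no overlap, a difference of -0.33 ± 0.078 (adjusted p = 0.0202). WFPA and EV cells differed by 0.05 and 0.01 at these probe sets (95% intervals -0.17 to 0.27 and -0.19 to 0.22). The fall was small and near the threshold. Against the mean of both, its adjusted p stayed under 0.05 in 9 of 16 alternative fits at 202686_s_at and 14 of 16 at 202685_s_at. At 202686_s_at it was lost, among others, without WWOX replicate 3 (-0.26). Against single controls it was less firm. At 202685_s_at the difference from EV cells (-0.32, limma adjusted p = 0.0494) held in 2 of 15 alternative fits. The difference from WFPA cells held in 7 of 15 at each probe set.

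MET, the HGF receptor, gave different answers at different probe sets. The brightest, 203510_at, had 11.98, 11.95 and 11.87 in WWOX cells, 11.99, 11.98 and 12.00 in WFPA cells, and 12.01, 11.95 and 12.02 in EV cells. All 9 arrays lay within a narrow band, and the difference of WWOX cells was -0.06 (95% interval -0.21 to 0.09, adjusted p = 0.61). The far dimmer probe set 213816_s_at, whose suffix marks probes shared by several transcripts, had 5.81, 5.77 and 5.04 in WWOX cells, 6.30, 6.95 and 6.40 in WFPA cells, and 6.68, 6.43 and 6.81 in EV cells. Its WWOX arrays lay below the other 6, a fall of 1.05 on the log2 scale (2.08-fold, SE 0.206, adjusted p = 0.00841). That call rested on the 2-fold limit: without WWOX replicate 3, the lowest array, the difference was -0.80, and without WFPA replicate 2 it was -0.95, both under 2-fold. Against EV cells the difference was -1.10 (adjusted p = 0.0173) and against WFPA cells -1.01 (adjusted p = 0.0201). The other 2 MET probe sets carry the suffix for probes that may match other sequences, and differed by -0.11 and -0.17 (adjusted p = 0.49 and 0.229). Both suffixes occur outside MET. The first, _s_at, is also carried by 202454_s_at of ERBB3, both AXL probe sets, 201984_s_at of EGFR and 216836_s_at of ERBB2, among others. The second, _x_at, is also carried by the brightest probe sets of FGFR1 and NRG1, 215404_x_at and 208232_x_at.

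EGFR, the receptor of EGF, TGFA and HBEGF, was dim in all groups: 4 of its 9 probe sets were under the lower quartile on all 9 arrays. Another probe set, under it on the WWOX arrays only, fell. At this probe set, 201984_s_at, EGFR had 4.18, 4.13 and 4.27 in WWOX cells, 5.28, 4.91 and 5.53 in WFPA cells, and 5.67, 4.88 and 4.69 in EV cells. The WWOX arrays lay below the other 6, and the difference was -0.96 ± 0.212 from the mean of both (1.95-fold, adjusted p = 0.0148), -1.04 from WFPA cells (2.06-fold, adjusted p = 0.0199) and -0.89 from EV cells (adjusted p = 0.0481). The difference from EV cells was fragile, with the adjusted p under 0.05 in 6 of 15 alternative fits and a value of -0.59 (adjusted p = 0.0865) without EV replicate 1. The 2-fold call against WFPA cells ended without WFPA replicate 1 (-1.02), without WFPA replicate 3 (-0.90) and without WWOX replicate 2 (-1.01). Of the other 8 EGFR probe sets, limma called 0 in any comparison and 0 had an unadjusted p under 0.05, with differences from the mean of both of -0.16 to 0.25. The brightest, 211551_at, had 5.33, 5.22 and 5.63 in WWOX cells, 5.23, 5.05 and 5.28 in WFPA cells, and 5.28 on each EV array, and its groups overlapped.

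**Figure D2:**
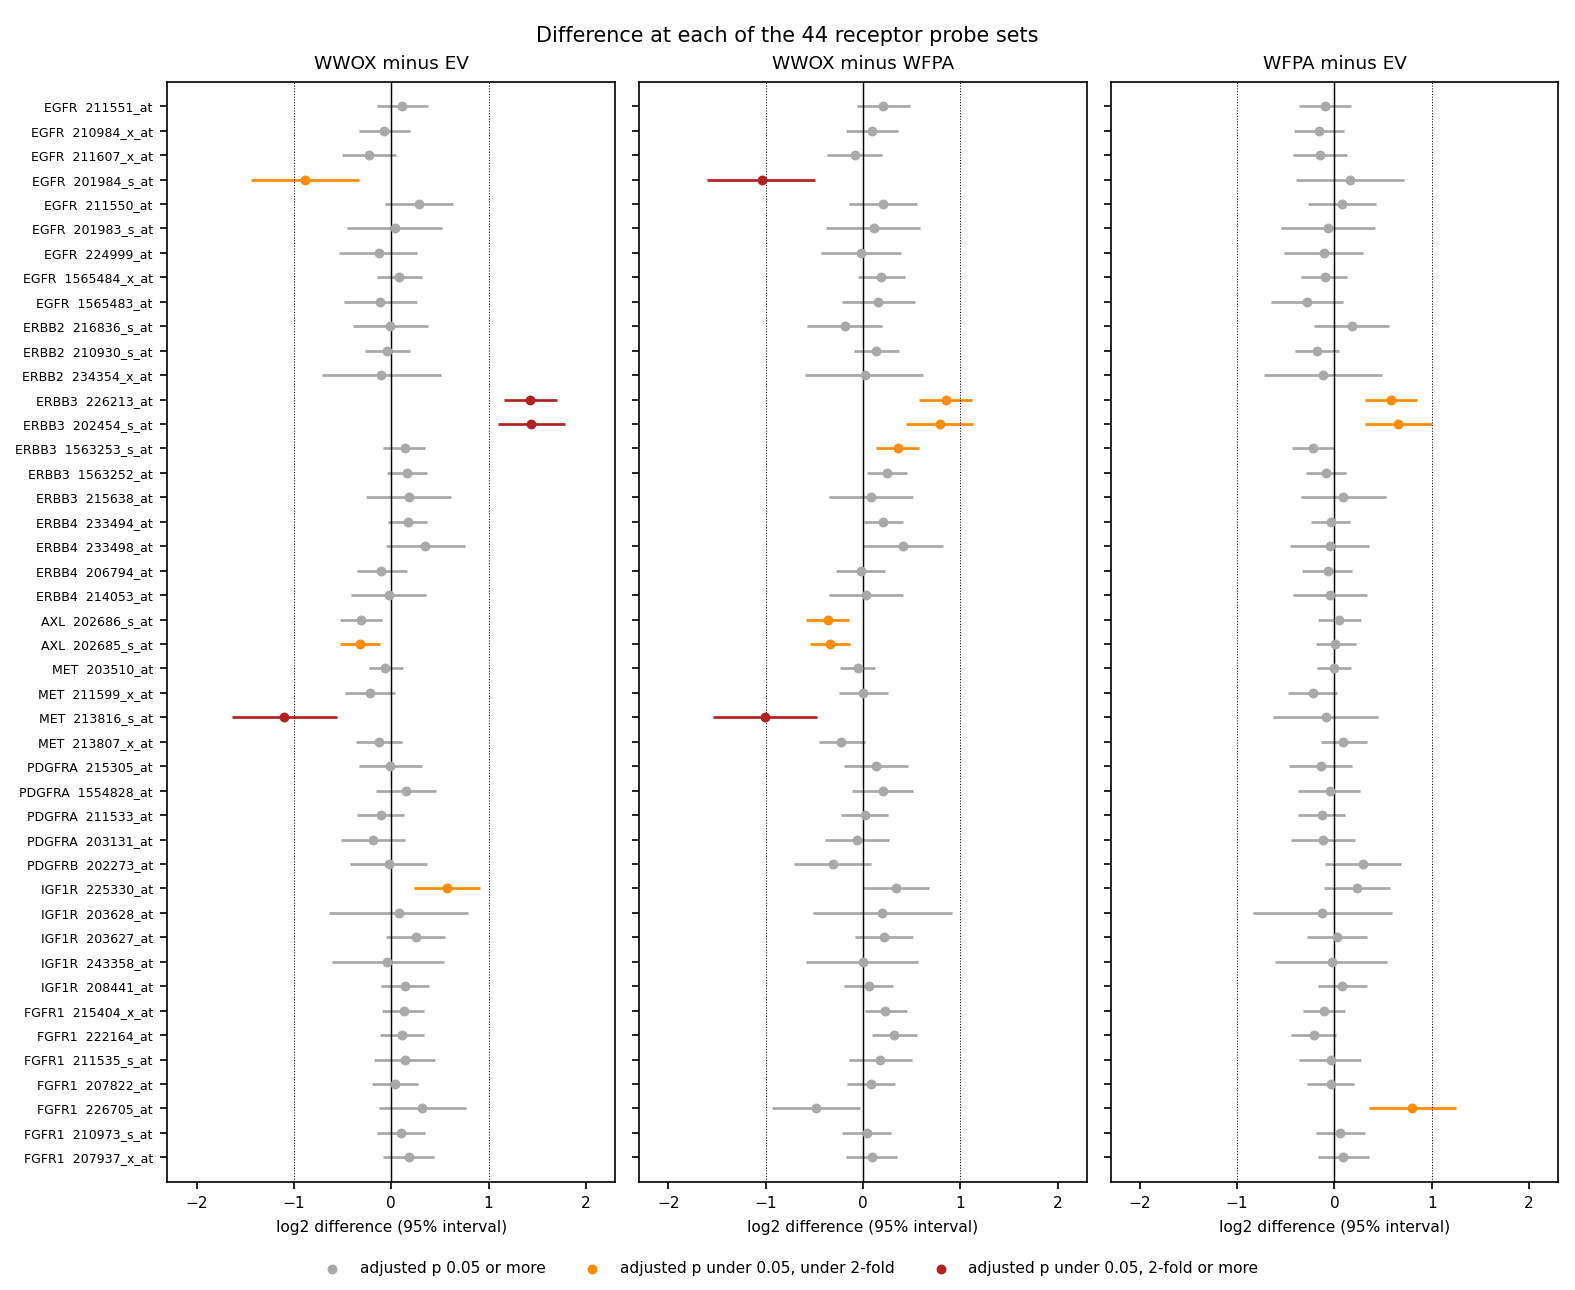
Log2 difference (points) and its 95% interval (lines) at each of the 44 receptor probe sets, for WWOX minus EV, WWOX minus WFPA and WFPA minus EV; dotted lines mark 2-fold. The 2 bright ERBB3 probe sets lie near 1.43 against EV, and 1 MET and 1 EGFR probe set lie apart from the others of their gene.

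PDGFRA and PDGFRB, which bind platelet-derived growth factors, showed no difference that passed. All 4 PDGFRA probe sets were under the lower quartile on all 9 arrays, with values of 2.70 to 4.07 in WWOX cells, 2.76 to 3.80 in WFPA cells and 2.72 to 4.11 in EV cells, so a change between low levels could not be measured at this signal. PDGFRB, the PDGF receptor of the invasive state, had 5.83, 6.12 and 6.13 in WWOX cells, 6.45, 6.12 and 6.45 in WFPA cells, and 6.30, 6.17 and 5.68 in EV cells at its probe set 202273_at. The groups overlapped, and the difference was -0.17 (95% interval -0.51 to 0.17, adjusted p = 0.484).

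IGF1R, the receptor of IGF1 and IGF2, was higher in WWOX cells at its brightest probe set by less than 2-fold. At 225330_at it had 9.34, 9.36 and 8.82 in WWOX cells, 8.88, 8.81 and 8.82 in WFPA cells, and 8.62, 8.45 and 8.74 in EV cells. WWOX replicates 1 and 2 stood above all other arrays, and replicate 3 lay within the WFPA range. The difference was 0.45 ± 0.129 from the mean of both (1.37-fold, adjusted p = 0.043) and 0.57 from EV cells (adjusted p = 0.0389), with the adjusted p under 0.05 in 6 of 16 and 6 of 15 alternative fits. From WFPA cells it was 0.34, with overlapping arrays, and missed the threshold (adjusted p = 0.162). Without WWOX replicate 3 the difference from the mean of both was 0.63. The same array was also low at 203628_at, where IGF1R had 8.57, 8.00 and 7.06 in WWOX cells, 7.71, 7.56 and 7.77 in WFPA cells, and 8.06, 7.65 and 7.70 in EV cells, a difference of 0.14 with an interval of -0.48 to 0.76. The other 3 IGF1R probe sets differed by -0.02 to 0.23. WWOX replicate 3 was also the lowest array at MET 213816_s_at. It had the highest lower quartile (4.34) and the lowest upper quartile (8.45) of the 9 arrays. It was not low throughout, being the highest WWOX array at SOX10 209842_at (10.67). Whether this array differs as a whole was not tested.

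FGFR1, which binds FGF1 and FGF2, changed little. At 215404_x_at, its brightest, it had 8.63, 8.75 and 8.63 in WWOX cells, 8.38, 8.50 and 8.43 in WFPA cells, and 8.62, 8.39 and 8.62 in EV cells. The WWOX arrays lay just above the others, with a difference of 0.18 (95% interval -0.01 to 0.37, adjusted p = 0.175), and at 222164_at the difference was 0.22 (adjusted p = 0.133). A dim FGFR1 probe set passed between the other groups: 226705_at had 4.66, 4.86 and 4.44 in WFPA cells, against 4.26, 3.79 and 3.53 in EV cells, a difference of 0.80 ± 0.199 (1.74-fold, adjusted p = 0.048). It was under the lower quartile on 5 of 9 arrays and passed in 6 of 15 alternative fits.

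Set side by side with the state, the group means at the brightest probe set ran in the order WWOX above WFPA above EV, that of SOX10 at 209842_at but not at 209843_s_at, for 2 of the 10 receptors, ERBB3 and IGF1R. They ran in the order WWOX above EV above WFPA, that of MITF at 226066_at and 207233_s_at but not at 1554874_at, for 3, EGFR, ERBB4 and FGFR1. These orders are of means, and most steps within them missed the threshold. AXL, ERBB2, PDGFRB and MET were lowest in WWOX cells, and PDGFRA was lowest in WFPA cells. ERBB3 is the only member of the 10 for which both steps of its order, WWOX over WFPA and WFPA over EV, had an adjusted p under 0.05.

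**Figure D3:**
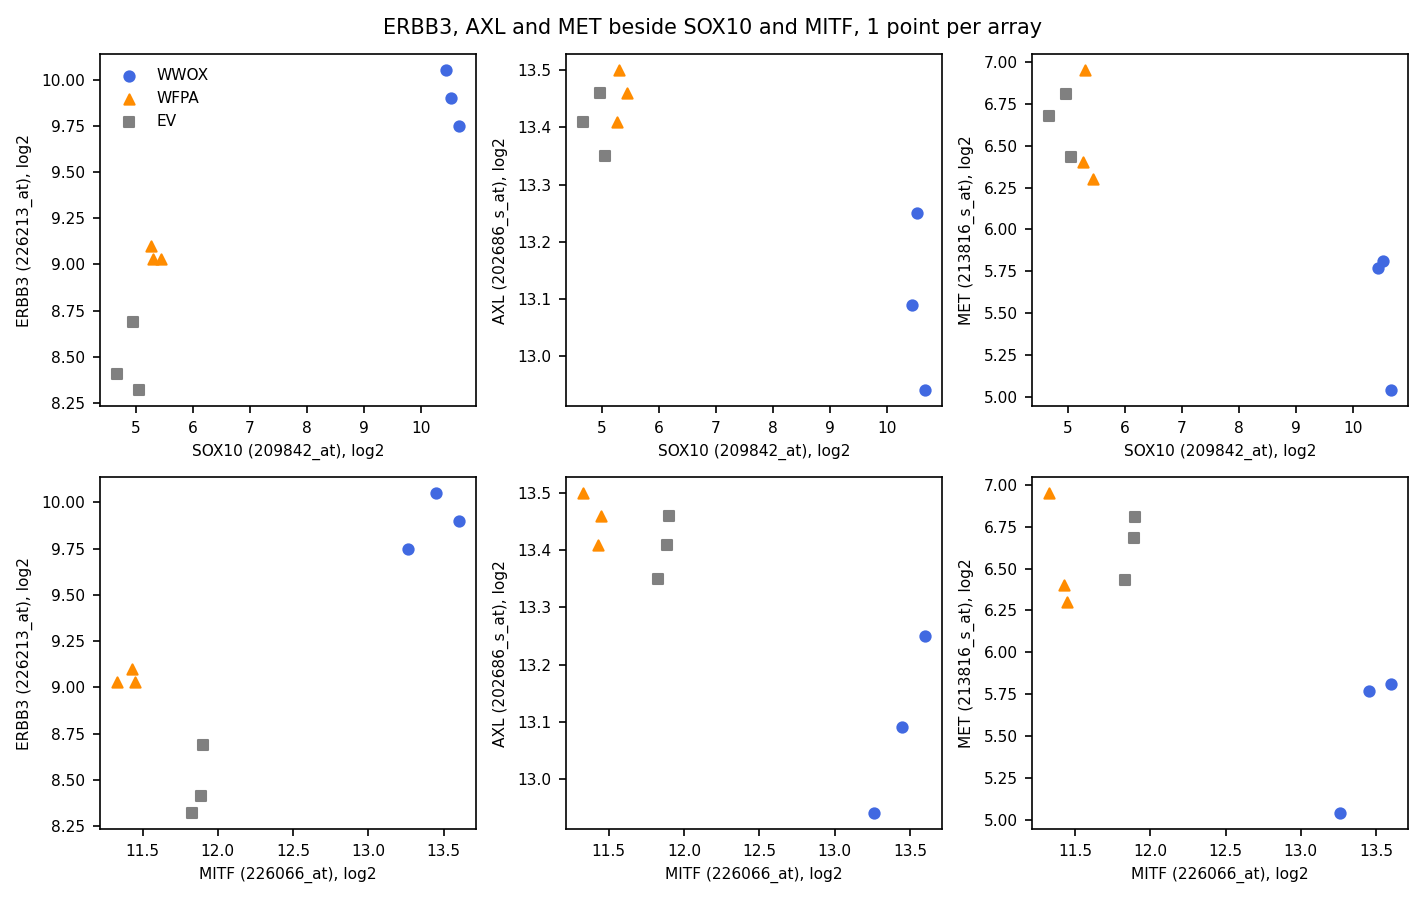
Log2 values of ERBB3, AXL and MET (213816_s_at) on each array against those of SOX10 (209842_at, upper row) and MITF (226066_at, lower row), 1 point per array. The WWOX arrays form a separate cluster at SOX10 values of 10.44 to 10.67, and on the MITF axis the WFPA arrays lie left of the EV arrays while their ERBB3 values lie above them.

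The ligands of these receptors were read at the brightest probe set of each gene. Of 22 ligand genes, 19 were measured, and 0 rose and 3 fell 2-fold or more in WWOX cells, where 1.94% of all genes rose and 2.06% fell; their median difference was -0.08, beside 0.04 over all genes. FGF1, a ligand of all FGF receptors, had 7.81, 7.01 and 7.68 in WWOX cells, 9.68, 9.67 and 9.66 in WFPA cells, and 9.32, 9.53 and 9.52 in EV cells. It fell by 2.06 on the log2 scale (SE 0.16, adjusted p = 4.35e-05), and its other 2 probe sets were also called lower (-1.91 and -1.14). HBEGF, a membrane-bound ligand of EGFR and ERBB4, had 7.76, 8.02 and 7.57 in WWOX cells, 9.28, 9.21 and 9.34 in WFPA cells, and 9.76, 9.39 and 9.78 in EV cells. It fell by 1.68 (SE 0.125, adjusted p = 3.26e-05), likewise at 203821_at (-1.83), while 2 dimmer probe sets gave -0.19 and 0.12. TGFA, a ligand of EGFR, had 5.62, 6.14 and 5.94 in WWOX cells, 7.44, 7.46 and 7.56 in WFPA cells, and 7.18, 6.95 and 6.92 in EV cells. It fell by 1.35 (SE 0.119, adjusted p = 9.46e-05), with -0.85 at 211258_s_at and 0.08 at 205015_s_at. The WWOX arrays of all 3 genes lay below the other 6.

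Ligands of other members moved less. PDGFC, which activates PDGFRA, was lower by 0.85 (adjusted p = 4.42e-04) and FGF2 by 0.62 (adjusted p = 7.88e-04), both under 2-fold. NRG1, the neuregulin that binds ERBB3, had means of 7.03 in WWOX, 7.13 in WFPA and 7.09 in EV cells (-0.08, adjusted p = 0.639). GAS6, the AXL ligand, had 9.43 in WWOX, 9.57 in WFPA and 9.08 in EV cells (0.10, adjusted p = 0.653), and HGF, the MET ligand, 5.12 in WWOX, 5.08 in WFPA and 4.99 in EV cells (0.08, adjusted p = 0.632). IGF1 had 6.78 in WWOX, 6.68 in WFPA and 6.75 in EV cells (0.07, adjusted p = 0.65). AREG, EPGN and IGF2 were not analysed here.

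Adaptors and negative regulators of receptor signaling held 3 genes that rose and 0 that fell 2-fold or more, of 34 measured (median 0.09). Of all genes 1.94% rose and 2.06% fell in WWOX cells. SHC4, a melanoma-expressed member of the SHC adaptors, had 7.02, 7.91 and 6.70 in WWOX cells, 4.16, 4.80 and 3.86 in WFPA cells, and 4.75, 5.33 and 4.46 in EV cells, a rise of 2.65 (SE 0.308, adjusted p = 5.14e-04) that 235238_at also showed (1.80). GAB2, a docking protein that recruits PI3K and SHP2, had 10.19, 10.61 and 10.68 in WWOX cells, 8.82, 8.83 and 8.75 in WFPA cells, and 8.96, 8.99 and 8.64 in EV cells, a rise of 1.66 (SE 0.127, adjusted p = 3.97e-05). SPRY1, a feedback inhibitor of receptor signaling to RAS, had 8.79, 8.76 and 8.55 in WWOX cells, 7.41, 7.67 and 7.04 in WFPA cells, and 5.93, 6.83 and 6.08 in EV cells. SPRY1 rose by 1.87 (SE 0.206, adjusted p = 3.69e-04) and, like ERBB3, also stood higher in WFPA than in EV cells (1.09, called, where 1.54% of all genes rose and 0.693% fell in WFPA cells), while its dimmer probe set 230212_at gave 0.22. The arrays of the 3 genes did not overlap between WWOX cells and the other 6. Under 2-fold, LRIG1, which directs ERBB receptors to degradation, was higher by 0.82 (adjusted p = 0.00124), and ERRFI1, a direct inhibitor of the EGFR kinase, was lower by 0.90 (log2 difference -0.90, adjusted p = 3.65e-04).

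Of 45 other receptor tyrosine kinases measured, 0 rose and 2 fell 2-fold or more (median 0.14), where 1.94% of all genes rose and 2.06% fell. EPHA2, an ephrin receptor of invasive melanoma, had 10.83, 11.00 and 10.95 in WWOX cells, 11.98, 11.99 and 12.05 in WFPA cells, and 12.26, 12.11 and 11.95 in EV cells, and fell by 1.13 (SE 0.0867, adjusted p = 4.02e-05). STYK1, a receptor-like kinase, had 5.07, 5.46 and 4.94 in WWOX cells, 7.17, 7.33 and 7.02 in WFPA cells, and 6.41, 6.69 and 7.03 in EV cells, and fell by 1.79 (SE 0.16, adjusted p = 1.05e-04), as at 220030_at (-1.66). TYRO3 and MERTK, the relatives of AXL, differed by 0.33 and 0.16 (adjusted p = 0.105 and 0.381).

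**Figure D4:**
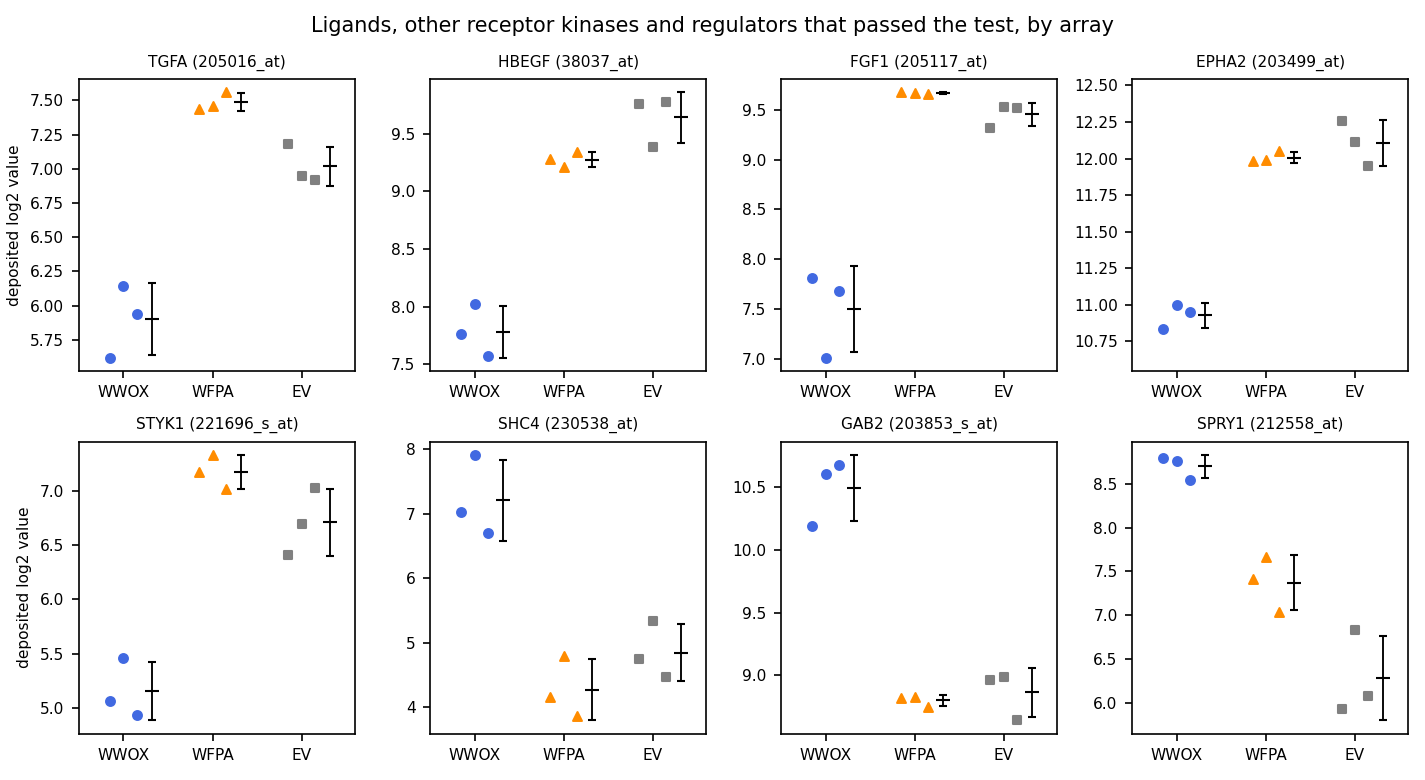
Deposited log2 value on each array (points) of the 3 ligands, 2 other receptor kinases and 3 adaptors or regulators called in WWOX cells, with the group mean and SD (bars, n = 3); each panel has its own axis. TGFA, HBEGF, FGF1, EPHA2 and STYK1 lie lower, and SHC4, GAB2 and SPRY1 higher, on all WWOX arrays than on the other 6.

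Melanocytic state genes were partly higher: 6 of 22 measured rose and 0 fell (median 0.33), where 1.94% of all genes rose and 2.06% fell. The 6 include SOX10 and MITF, the factors that define the state, and otherwise are S100B, CITED1, IRF4 and CAPN3. S100B, a calcium-binding protein of neural crest cells, rose by 6.30 (adjusted p = 1.90e-07), but by 0.45 at its dim probe set. CITED1, a transcriptional cofactor, rose by 3.17 (adjusted p = 2.58e-05). IRF4, a factor that acts with MITF on pigment genes, rose by 3.14 (adjusted p = 2.40e-06), but by 0.43 and 0.01 at its other probe sets. Genes of pigment formation were not among them: PMEL had means of 5.77 in WWOX, 5.91 in WFPA and 5.80 in EV cells (adjusted p = 0.697), TYR 5.75 in WWOX, 5.42 in WFPA and 5.46 in EV cells (adjusted p = 0.173), and TYRP1 was under the lower quartile on all 9 arrays. Of 26 invasive state genes, 0 rose and 2 fell against the mean of both (median -0.21), beside the same shares of all genes. The count depended on the control. Against EV cells alone 1 rose and 2 fell, where 417 of 19775 genes rose and 354 fell. Against WFPA cells 0 rose and 6 fell, where 398 of 19775 genes rose and 537 fell. INHBA, a subunit of activin, fell by 2.67 (adjusted p = 5.03e-06), with -0.33 and -0.48 at its dimmer probe sets. WNT5A was called at -1.34 (adjusted p = 0.0127), but not against EV cells alone: WWOX and EV cells were both low (means 3.37 and 3.50) and WFPA cells stood at 5.93. The dim WNT5A probe set 213425_at gave -0.30 and was not called. Markers of other cell types also moved with these groups. Of the fibroblast markers 2 of 6 were higher in WWOX cells (LUM by 4.36, COL1A2 by 1.35), and the mean level of the list was 6.31 to 6.33 in WWOX, 5.47 to 5.52 in WFPA and 5.18 to 5.34 in EV arrays. Of the epithelial markers 3 of 7 were lower (KRT18, KRT8 and CDH1; 6.48 to 6.53 in WWOX, 7.25 to 7.32 in WFPA and 6.79 to 7.02 in EV arrays), of the blood cell markers 1 of 5 was lower (PTPRC; 5.30 to 5.60 in WWOX, 5.79 to 5.89 in WFPA and 6.14 to 6.27 in EV arrays), and of the 5 endothelial markers 0 were called. At other probe sets LUM gave -0.18, COL1A2 gave 2.04 and 0.30, CDH1 gave 0.04, and PTPRC gave -3.77, -2.60, -0.35 and 0.02. The part of the cell type markers in the receptor results was not tested.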

How the data were processed

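Total RNA of MDA-MB435S cells was hybridised to Affymetrix human U133 Plus arrays. The authors normalized the arrays in Partek Genomics Suite 6.5 and deposited log2 expression values per probe set; the background and normalization method is not given in the sources used here. Of 54675 probe sets, 62 array controls were left out; 41091 named 1 gene, 1801 several and 11721 none. Group means were fitted with limma 3.58.1 (R 4.3.3) and p-values adjusted by Benjamini-Hochberg over 54613 probe sets. The fit was checked on simulated data. Intervals are 95% intervals of limma's moderated statistic. A gene's representative was its brightest probe set.

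On each array 9.26% to 11.8% of probe sets held a value shared by at least 20 probe sets, up to log2 values of 6.47 to 7.30, so dim values carry little information of their own; 33 of the 44 member probe sets had such a value on some array. Precision rests on 3 arrays a group. The members and gene lists were chosen with earlier results of these data known. All member probe sets are named or summarised, with the called list genes of largest change (up to 4 a list), the members' ligands, and the 2 genes most like a called member, and the list genes tied to a member that the text sets beside it. Sequences came from RefSeq (GRCh38.p14). Alternatives were Bonferroni adjustment, other fold limits, limma-trend, a robust prior, a dim filter, median centring, quantile normalization, a replicate block, leaving out each array, pooling EV with WFPA, and other choices of probe set.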

Additional observations from a re-analysis of the deposited data

How the results depend on the processing

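Of 44 member probe sets, 3 were called against the mean of WFPA and EV cells, 3 against EV, 2 against WFPA and 0 between WFPA and EV cells. With Bonferroni adjustment these counts were 0, 1, 0 and 0, and with a 4-fold limit, the study's own, 0 in each; with no fold limit they were 7, 6, 7 and 3. Leaving out single arrays gave 3 to 4, 2 to 3, 1 to 2 and 0. The replicate block gave 3, 3, 2 and 0. The deviations of same-numbered arrays had correlations of -0.0521 to 0.0348. Whether those arrays share a culture or batch that affects some genes was not tested. limma-trend, the robust prior, the dim filter, median centring and quantile normalization moved no member count by over 1.5 times, and no result reversed in any alternative run.

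ERBB3 against the mean of both was 1.12 with the probe set of largest variance and 0.57 with the mean of its 5 probe sets, and against EV cells 1.44 and 0.67. EGFR at 201984_s_at reached 2-fold against the mean of both with quantile normalization (-1.01) and without EV replicate 2 (-1.01), EV replicate 3 (-1.06), WFPA replicate 2 (-1.05) or, just, WWOX replicate 3. Without WFPA replicate 2 or WWOX replicate 3 it took the place of MET, so that the count of 3 held a different gene, as it did against EV cells without EV replicate 3 (EGFR -1.08). The MET call at 213816_s_at also ended against EV cells without EV replicate 1 (-1.08) or 3 (-1.01), where the adjusted p passed 0.05, and without WWOX replicate 3 (-0.85), and against WFPA cells without WFPA replicate 2 (-0.81) or WWOX replicate 3 (-0.76). Counts of list genes moved with the limits: with no fold limit 5 ligands fell, 4 other kinases, 8 adaptors or regulators, 11 melanocytic and 1 invasive gene rose, and 3 adaptors or regulators, 1 melanocytic and 11 invasive genes fell. At 4-fold 1 ligand, 0 other kinases and 1 invasive gene fell and 1 adaptor rose, and with Bonferroni adjustment 1 other kinase and 1 invasive gene fell and 1 adaptor rose. WNT5A was not called with EV and WFPA as 1 group. Signal over background limits EGFR, ERBB4 and PDGFRA most, where 4 of 9, 1 of 4 and 4 of 4 probe sets were under the lower quartile on all 9 arrays.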

Other observations

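WFPA and EV cells both had low SOX10. Of 26 invasive state genes measured, 4 rose and 1 fell 2-fold or more when WFPA cells were set against EV cells, where 304 (1.54%) of 19775 genes rose and 137 (0.693%) fell. The list was not tested against other genes. WNT5A, a noncanonical Wnt ligand, had 5.48, 6.76 and 5.54 in WFPA cells, against 3.88, 3.59 and 3.03 in EV cells. CCN2, a matricellular protein and YAP target, averaged 8.41 in WFPA cells and 5.57 in EV cells, NNMT, a methyltransferase of nicotinamide, 12.46 in WFPA cells and 10.06 in EV cells, and INHBA 8.85 in WFPA cells and 7.71 in EV cells. TGFBI, an extracellular matrix protein, was lower, at 9.58 in WFPA cells and 10.69 in EV cells. Over the same pair of groups AXL differed by 0.05 and 0.01 at its 2 probe sets, and 2 receptor tyrosine kinases outside the set passed under 2-fold: DDR2, a collagen receptor, was higher in WFPA cells (0.95) and TYRO3 lower (-0.67). CCN2, NNMT, TGFBI, DDR2 and TYRO3 were picked after their values were seen.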
